A study of Mus musculus with 4 samples.

Results

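The Kruppel-like factors studied here are 10 transcription factor genes (Klf2, Klf3, Klf4, Klf5, Klf6, Klf7, Klf9, Klf10, Klf13 and Klf15) that promote or restrain the formation of fat cells. They are 10 of the 17734 named genes on the array and were measured by 11 of its 26423 probes, chosen by the gene symbol that the platform's annotation gives each probe. Klf13 had 2 probes and each of the other 9 genes had 1. The material was 4 samples of 3T3-L1, an established mouse preadipocyte line, each read on 1 array. All 4 received the adipogenic mixture of 0.5 mM isobutylmethylxanthine (a phosphodiesterase inhibitor that raises cAMP), 1 µM dexamethasone (a synthetic glucocorticoid) and 1 µg/ml insulin for 48 hours. The 2 control samples had the mixture alone, and the 2 berberine samples had 13.47 µM berberine, a plant alkaloid, as well. The labels name no uninduced cells and no batch. They do not say that the replicates were cultured apart, so the p-values reflect the spread between these arrays alone, which may be technical.

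Kruppel-like factors share a block of zinc fingers near the carboxyl end that binds GC-rich and CACCC sequences, and they differ in the remaining part of the protein, which recruits coactivators or corepressors. During adipogenesis they act at successive steps. Klf4 is an early activator that works with Egr2 on the Cebpb promoter, Klf5 is induced by C/EBP beta and C/EBP delta and activates Pparg, and Klf9, Klf13 and Klf15 act on Pparg and on later metabolic genes. Klf6 represses Dlk1, a preadipocyte gene that holds differentiation back. Klf2 represses Pparg, Klf3 represses Cebpa together with the corepressor CtBP, and excess Klf7 blocks differentiation. Klf10 is known as an early response gene of TGF-beta signalling, and its place in adipogenesis is less settled.

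The promoters of 4 members that differed between the groups are shown, because the data concern the RNA levels of these genes. Kruppel-like and Sp proteins also read sequences of this kind. RefSeq's promoter table matched 8 of the 10 members, namely Klf2, Klf3, Klf4, Klf6, Klf7, Klf9, Klf13 and Klf15, by symbol. The 250 bases before the annotated start site are printed 5′ to 3′ on the gene's strand. Capitals mark GGGCGG (the GC box), CACCC and CACGTG (an E-box), each searched on both strands, and overlapping or adjoining matches run together.
Klf15, GRCm38.p6 chr6:90462326-90462575, plus strand: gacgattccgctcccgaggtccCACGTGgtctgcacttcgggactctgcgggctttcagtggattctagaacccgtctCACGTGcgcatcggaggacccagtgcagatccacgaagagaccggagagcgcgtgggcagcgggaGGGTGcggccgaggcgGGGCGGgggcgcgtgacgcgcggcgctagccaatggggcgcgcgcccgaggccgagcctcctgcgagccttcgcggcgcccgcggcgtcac
Klf3, GRCm38.p6 chr5:64803271-64803520, plus strand: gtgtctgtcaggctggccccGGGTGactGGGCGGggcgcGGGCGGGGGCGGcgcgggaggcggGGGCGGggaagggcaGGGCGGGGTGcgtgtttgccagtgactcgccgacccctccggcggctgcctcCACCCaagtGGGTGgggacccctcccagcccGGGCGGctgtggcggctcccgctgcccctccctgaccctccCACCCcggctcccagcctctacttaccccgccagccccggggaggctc
Klf4, GRCm38.p6 chr4:55532476-55532725, minus strand: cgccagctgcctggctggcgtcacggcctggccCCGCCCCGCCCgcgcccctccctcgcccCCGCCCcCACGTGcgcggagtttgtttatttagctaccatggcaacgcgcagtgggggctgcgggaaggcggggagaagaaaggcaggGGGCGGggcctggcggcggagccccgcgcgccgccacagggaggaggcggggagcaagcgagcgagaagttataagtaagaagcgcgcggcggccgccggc
Klf6, GRCm38.p6 chr13:5861239-5861488, plus strand: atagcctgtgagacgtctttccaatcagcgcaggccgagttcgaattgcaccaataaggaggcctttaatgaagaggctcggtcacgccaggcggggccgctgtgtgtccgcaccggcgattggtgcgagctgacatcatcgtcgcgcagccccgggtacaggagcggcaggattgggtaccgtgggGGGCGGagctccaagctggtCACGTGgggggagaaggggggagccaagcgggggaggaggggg
The Klf3 window held 6 GC boxes and 5 CACCC matches, the Klf4 window 4 GC boxes and no CACCC, and the Klf15 window 1 of each. CACGTG was found 2 times before Klf15, 228 and 172 bases upstream of the start, 1 time before Klf4 and 1 time before Klf6, and in none of the other 5 matched windows. Over the 21263 windows of protein-coding genes in the same table, 42.6% held GGGCGG, 54.2% CACCC and 6.63% CACGTG, against 7, 6 and 3 of the 8 member windows. The member windows were rich in G and C, 59.2% to 78.4% of their bases. The median was 52.4% over all 32851 windows, which include genes that do not code for protein, and was not taken over the protein-coding windows alone. For Klf15 and Klf7 the start site used was not the outermost annotated end of the gene. Every window stands for 1 start site, and other starts of the members were not counted. These matches describe letters in a window and are not evidence of binding.

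On these arrays the control and berberine groups stood apart at a large share of all probes, so counts of members are read against that share. The levels given are log2 intensities after quantile normalization between arrays, and each change is the berberine mean less the control mean. Adjusted p-values come from limma over all 26408 probes tested, with a threshold of 0.05. Probes under the 25th percentile of normalized values, 6.58 on log2, are called below the floor and treated as giving no readable level. The median change of all probes was 0.17 on log2 under this normalization, -0.05 in the deposited values, 0.52 once arrays were centred on their median and 0.26 with scaling to the 75th percentile, so small changes depend on the scaling. A difference in level between probes is not read as a difference in RNA amount.

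Berberine was accompanied by movement of the Klf genes in both directions. Klf15 fell 6.92-fold, Klf5 2.22-fold and Klf4 1.79-fold, while Klf10 rose 3.20-fold, Klf3 2.44-fold and Klf6 1.42-fold. Of the 11 member probes, 8 passed the threshold (44.8% of all probes did), 4 of them higher (27.1% of all probes) and 4 lower (17.7%). The probes of Klf3, Klf5, Klf10 and Klf15, 4 in all, also changed by 2-fold or more, as did 22.0% of all probes. In the same 8 probes the arrays of the groups did not overlap, which held for 74.8% of all probes. The median change over the 11 member probes was 0.15, against 0.17 over all probes. The middle probe was that of Klf7, which lay below the floor. With dim probes left out the medians were 0.07 for the members and 0.23 over all probes. The split of calls depended on scaling: 2 higher and 2 lower in the deposited values, 5 and 1 after centring on the median, and 4 and 2 after scaling on the 75th percentile. Leaving out either berberine array left 3 member calls, those of Klf3, Klf10 and Klf15.

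**Figure D1:**
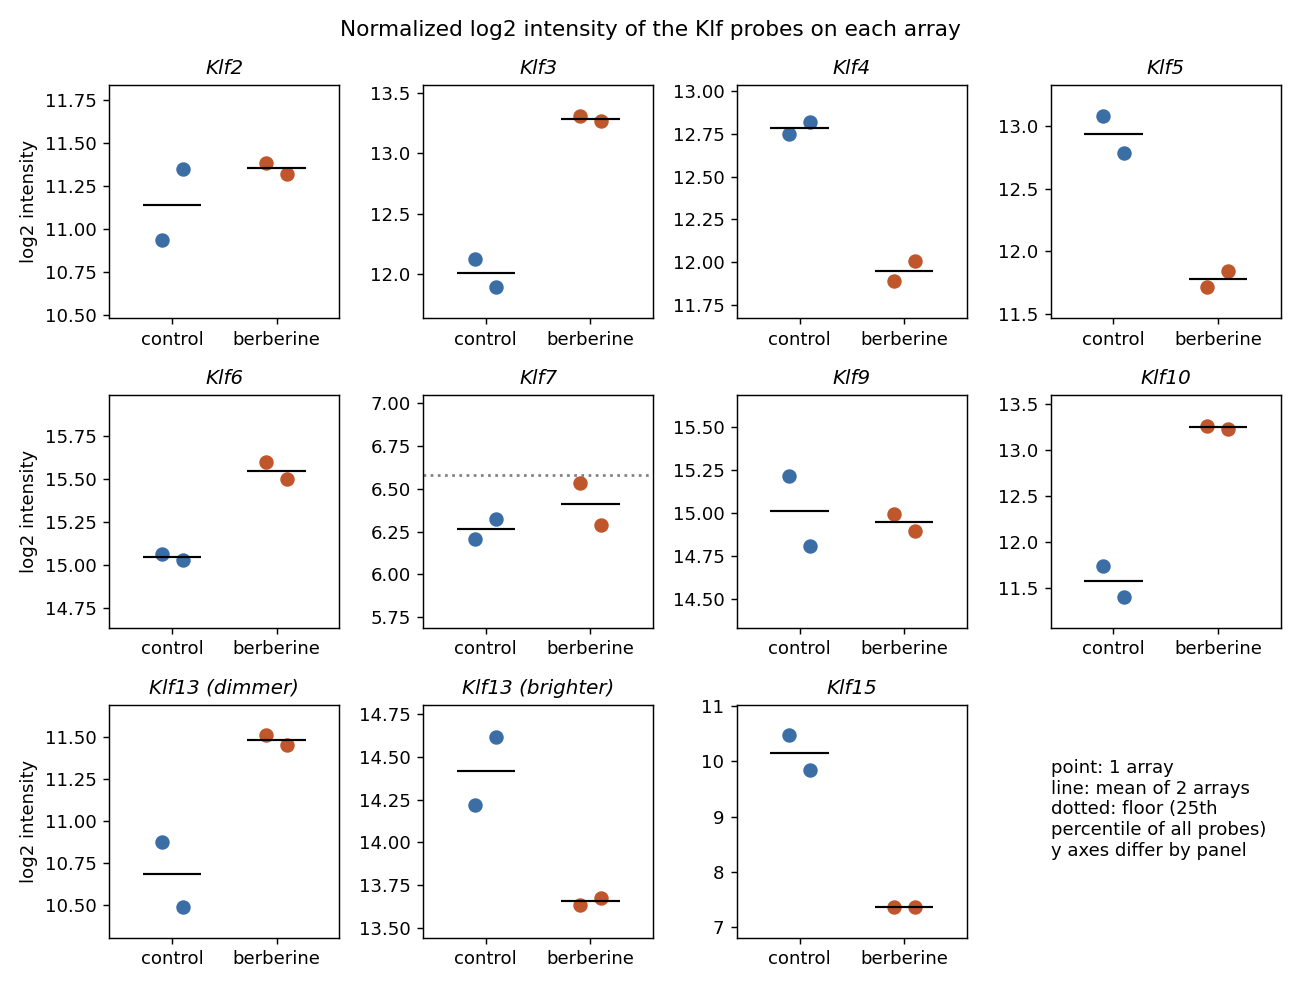
Normalized log2 intensity of the 11 Klf probes on each of the 4 arrays, 1 panel per probe, with control in blue, berberine in orange and the mean of each group as a line. The groups stand apart for Klf3, Klf4, Klf5, Klf6, Klf10, Klf15 and both Klf13 probes and overlap for Klf2, Klf7 and Klf9. The y axes differ between panels.

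Among the factors that promote adipogenesis, Klf15 had the largest change. This factor is induced by glucocorticoids and controls genes of glucose and amino acid use. The control arrays had deposited intensities of 1914 and 992, and the berberine arrays 129 and 158. After normalization it read 10.47 and 9.85 in control and 7.37 on both berberine arrays. Both berberine arrays were far below both controls and still above the floor, and the control arrays differed from each other by 0.62. The log2 change was -2.79 (SE 0.23, 95% interval -3.39 to -2.20, adjusted p = 0.000993). Only 3.41% of all probes had a lower change. The call held under all 11 alternative settings that were run, with log2 changes of -3.27 to -2.48 and adjusted p no higher than 0.0309.

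Klf5, the activator of Pparg that follows C/EBP beta, read 13.08 and 12.78 in control and 11.71 and 11.85 with berberine. Both berberine arrays were lower than both controls, by a log2 change of -1.15 (SE 0.16, adjusted p = 0.00441). Klf4, the early activator, read 12.75 and 12.82 in control and 11.89 and 12.01 with berberine, a log2 change of -0.84 (SE 0.13, adjusted p = 0.00587). Both genes kept a negative sign under each alternative, with Klf5 between -1.30 and -0.59 and Klf4 between -0.89 and -0.26. The Klf5 call was lost after centring on the median (adjusted p = 0.0544) and without berberine replicate 1 (0.0643) or 2 (0.0526). The Klf4 call was lost without scaling (adjusted p = 0.0531), with median centring (0.172), with the 75th percentile (0.0815) and without berberine replicate 1 (0.0731) or 2 (0.0570).

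Klf6, the repressor of Dlk1, moved the other way. It read 15.06 and 15.03 in control and 15.60 and 15.50 with berberine, so that both berberine arrays were higher, by 0.50 on log2 (SE 0.12, adjusted p = 0.0260). The sign was positive under every alternative (0.46 to 1.27), but the call was lost when arrays were not scaled (adjusted p = 0.0855) and when any 1 of the 4 arrays was left out (0.0504 to 0.166). Dlk1 itself, the gene that Klf6 represses, fell 3.09-fold at its brighter probe (log2 change -1.63, adjusted p = 0.000704, and -0.87 after centring). Its dimmer probe changed by -0.20 (adjusted p = 0.355). A link between the changes of Klf6 and Dlk1 was not tested.

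Klf9, another glucocorticoid-induced factor, was not called. It read 15.21 and 14.81 in control and 14.99 and 14.90 with berberine, and the berberine arrays lay between the controls. The log2 change of -0.07 had a 95% interval of -0.53 to 0.40 (adjusted p = 0.790), so a change of up to about that size in either direction cannot be told from none. Its sign depended on the scaling: 0.15 in the deposited values, 0.46 after scaling on the 75th percentile, and 0.72 after centring, where it passed (adjusted p = 0.0482).

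The 2 probes of Klf13, a factor that binds the Pparg promoter, were called in opposite directions. The dimmer probe read 10.88 and 10.49 in control and 11.51 and 11.45 with berberine, a rise of 0.80 on log2 (SE 0.17, adjusted p = 0.0179). The brighter probe read 14.22 and 14.61 in control and 13.64 and 13.68 with berberine, a fall with a log2 change of -0.76 (SE 0.17, adjusted p = 0.0216). Each call was lost in the deposited values and without either berberine array, and that of the brighter probe also after centring on the median (-0.0036, adjusted p = 0.986) and after scaling on the 75th percentile (-0.26, adjusted p = 0.397). The average of both probes changed by 0.019 (adjusted p = 0.902). In the deposited values the log2 difference between the 2 probes, which a single scaling factor per array cannot alter, was -3.02 and -3.77 in control and -2.32 and -2.42 with berberine, a shift of 1.02. Quantile normalization alters this difference, and the shift was then 1.56. On these arrays the 2 probes gave unlike changes, but the shift was not tested and the control arrays themselves lay apart in this difference. No single direction can be given for the gene from this array.

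**Figure D2:**
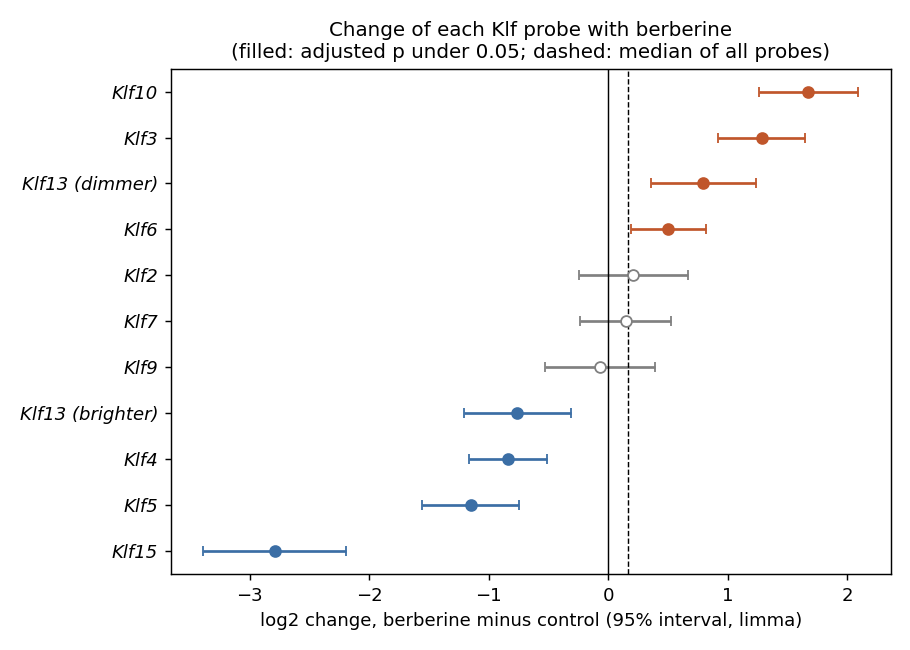
Log2 change of each Klf probe, berberine minus control, with its 95% interval from limma (n = 2 arrays per group), sorted by size. Filled points passed an adjusted p of 0.05, and the dashed line is the median change of all probes at 0.17. Klf15 lies lowest at -2.79 and Klf10 highest at 1.68, and the 2 Klf13 probes lie on opposite sides of 0.

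Among the factors that restrain adipogenesis, Klf3 rose and neither of the others passed. Klf3, the partner of CtBP in repressing Cebpa, had deposited intensities of 5208 and 3383 in control and 10150 and 10766 with berberine. After normalization it read 12.12 and 11.89 in control and 13.31 and 13.27 with berberine. Both berberine arrays were higher than both controls, by 1.28 on log2 (SE 0.14, 95% interval 0.92 to 1.65, adjusted p = 0.00226). The call held under all 11 alternatives, with log2 changes of 1.17 to 1.88 and adjusted p no higher than 0.0456. Cebpa, which Klf3 represses, fell 6.73-fold (adjusted p = 0.000215), and a link between this fall and the rise of Klf3 was not tested.

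Klf2, a repressor of Pparg, read 10.94 and 11.35 in control and 11.38 and 11.32 with berberine, so the groups overlapped. Its log2 change of 0.21 had a 95% interval of -0.25 to 0.67 (adjusted p = 0.376) and was -0.076 in the deposited values. The Klf7 probe read 6.20 and 6.32 in control and 6.53 and 6.29 with berberine, below the floor on every array. No change in Klf7 can be read from it. The Pparg probe lay below the floor in both groups as well (4.93 and 5.61 on average), so the target that several of these factors share has no readable level here.

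Klf10 had the largest rise of the members. Its deposited intensity was 4134 and 2560 in control and 9795 and 10482 with berberine. After normalization it read 11.74 and 11.40 in control and 13.27 and 13.23 with berberine. The berberine arrays were close to each other and both above the controls, by 1.68 on log2 (SE 0.16, 95% interval 1.26 to 2.09, adjusted p = 0.00151). Of all probes, 97.3% had a lower change. The call held under all 11 alternatives, with log2 changes of 1.51 to 2.20 and adjusted p no higher than 0.0380.

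Differences between members within an array do not depend on a single scaling factor per array, though quantile normalization does alter them. In the deposited values, the log2 difference Klf3 minus Klf5 was -0.87 and -0.81 in control and 1.74 and 1.52 with berberine, a shift of 2.47. Klf3 minus Klf15 shifted by 4.59, from 1.44 and 1.77 to 6.30 and 6.09. Klf6 minus Klf4 shifted by 1.53, from 2.25 and 2.16 to 3.87 and 3.60, and Klf9 minus Klf15 by 3.42. After quantile normalization the shifts of these 4 pairs were 2.44, 4.08, 1.34 and 2.73, in the same order. In each of these pairs both berberine arrays were above both controls, in the deposited and in the quantile-normalized values. In the deposited values Klf10 minus Klf5 shifted by 2.79 and Klf2 minus Klf4 by 0.75. Each pair set a member that rose or was not called against a member that fell on these same arrays. The direction of the shifts was therefore set by the choice of pair and adds no support to the calls. These shifts describe unequal change on these arrays, were not tested, and do not show that either member of a pair kept its level. With 2 arrays against 2, an exact permutation test cannot give a two-sided p under 0.33.

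**Figure D3:**
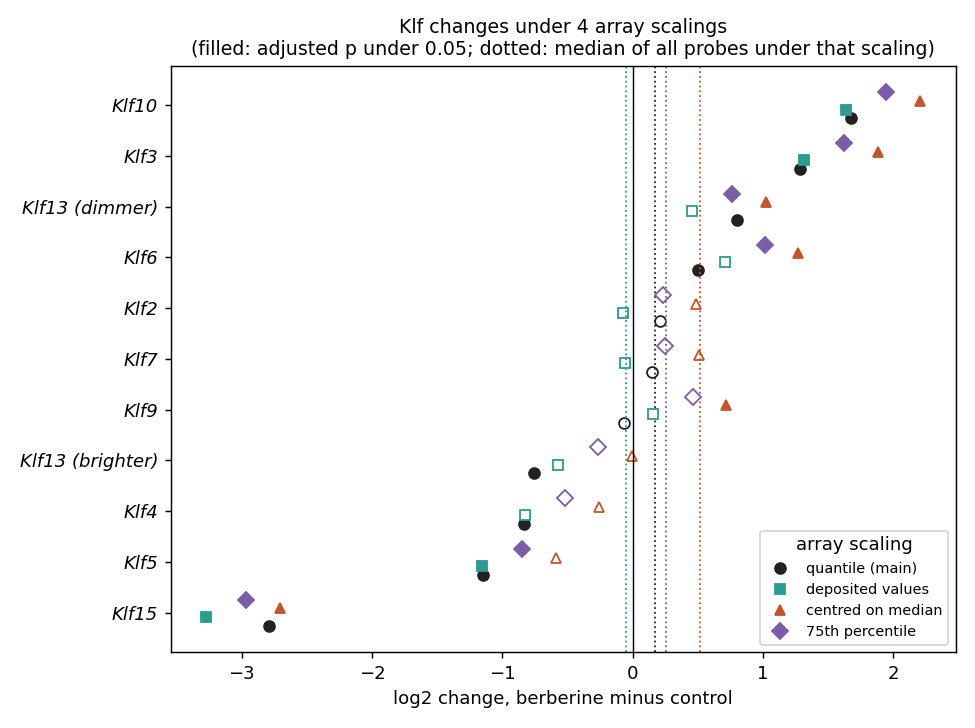
Log2 change of each Klf probe under 4 array scalings (marker shape), with filled markers where the adjusted p from limma was under 0.05 and dotted lines at the median change of all probes under each scaling. Klf3, Klf10 and Klf15 are filled under all 4 scalings, Klf9 lies on either side of 0, and the brighter Klf13 probe is at -0.0036 after centring.

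Replicates lay further apart in control than with berberine at 8 of the 11 probes. At these 8 probes the control arrays differed by more than 0.21 on log2, the median gap between controls over probes above the floor, and the corresponding median between the berberine arrays was 0.11. Klf15 differed most between controls, followed by Klf2 (0.41) and Klf9 (0.41), while Klf6 (0.036) and Klf4 (0.068) differed least. Of the 11 probes, 7 were higher in control replicate 1 than in control replicate 2 after normalization, against 44.1% of all probes above the floor. limma pools the spread of both groups, so the interval and p-value of each change assume an equal spread in control and berberine.

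Other members of the Kruppel-like and Sp families, which bind the same kind of sequence, were also split. For these and the following lists a gene stands by its brightest probe, and 48.2% of 17734 genes were called, 30.0% higher and 18.2% lower, with a median change of 0.20. Of 14 other Klf and Sp genes measured, 4 rose, 3 fell and 7 did not pass, with a median of 0.18. Sp1, a widely expressed activator at GC boxes, read 12.38 and 12.89 in control and 9.21 and 9.20 with berberine, a 10.8-fold fall (adjusted p = 0.000390). Sp4 rose 3.41-fold (adjusted p = 0.00112) and Klf8, a repressor related to Klf3, rose 2.25-fold (adjusted p = 0.00254), a call lost in the deposited values (0.116). Each of these genes has 1 probe, and Sp8, counted as lower, was below the floor in both groups. Without berberine replicate 1 or 2, 4 and 3 of these genes were called.

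Genes that stand before or after the Klf factors in the adipogenic cascade moved in both directions. Of 14 measured, 5 were higher, 6 lower and 3 did not pass, with a median of -0.42. Fabp4, a fatty acid binding protein, fell 7.06-fold (log2 change -2.82, and -2.19 after centring), and Gata3, which holds preadipocytes back, rose 6.02-fold. Egr2, the partner of Klf4, read 9.32 and 8.82 in control and 9.82 on both berberine arrays, a rise of 0.75 (adjusted p = 0.0335) that was lost under the other scalings and without either berberine array (0.0540 to 0.789). Cebpb, the gene on which Klf4 and Egr2 act, read 15.11 and 14.46 in control and 14.44 and 14.41 with berberine. Its log2 change was -0.37 (adjusted p = 0.270), but 0.41 after centring, and without control replicate 2 it passed at -0.69 (adjusted p = 0.0277). Cebpd, which drives Klf5, had a log2 change of -1.20 (adjusted p = 0.00438), lost without berberine replicate 1 (0.0524) or 2 (0.0615). The count includes Pparg among the higher genes, although its probe is below the floor. Without either berberine array 7 genes of the list were called.

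Cofactors of the Klf proteins also moved in both directions. Of 17 measured, 9 rose, 5 fell and 3 did not pass, with a median of 0.52. Fhl3, a LIM protein that binds Klf3, rose 4.22-fold (adjusted p = 0.000452), and Smurf1, a ubiquitin ligase, rose 3.40-fold (log2 change 1.76, adjusted p = 0.000892; 2.39 after centring). Of the CtBP corepressors, Ctbp1 read 15.52 and 15.70 in control and 15.49 and 15.46 with berberine and was not called (log2 change -0.13, adjusted p = 0.458; 0.65 and adjusted p = 0.0196 after centring). Ctbp2 fell 2.14-fold at its brighter probe (adjusted p = 0.00299), a call lost without berberine replicate 1 (0.0510), and its other probe changed by 0.40 (adjusted p = 0.236). Sin3b, a paralogue of the corepressor scaffold Sin3a that Klf9, Klf10 and Klf13 recruit, rose 3.23-fold at its brighter probe, while its dimmer probe dropped under the floor, a fall of at least 6.22-fold, so its direction is uncertain. Without berberine replicate 1, 7 cofactors were called, and without replicate 2, 8.

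Signals known to drive Klf genes were split as well. Of 11 measured, 5 rose, 2 fell and 4 did not pass, with a median of 0.41. Smad7, an inhibitor of TGF-beta signalling, rose 6.0-fold (adjusted p = 0.000233), while the ligand Tgfb1 fell 3.65-fold (adjusted p = 0.000563) and Mef2d, a transcription factor of the pathway that induces Klf2, fell 3.47-fold (adjusted p = 0.000769). The count was 11 after centring and 3 without either berberine array.

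**Figure D4:**
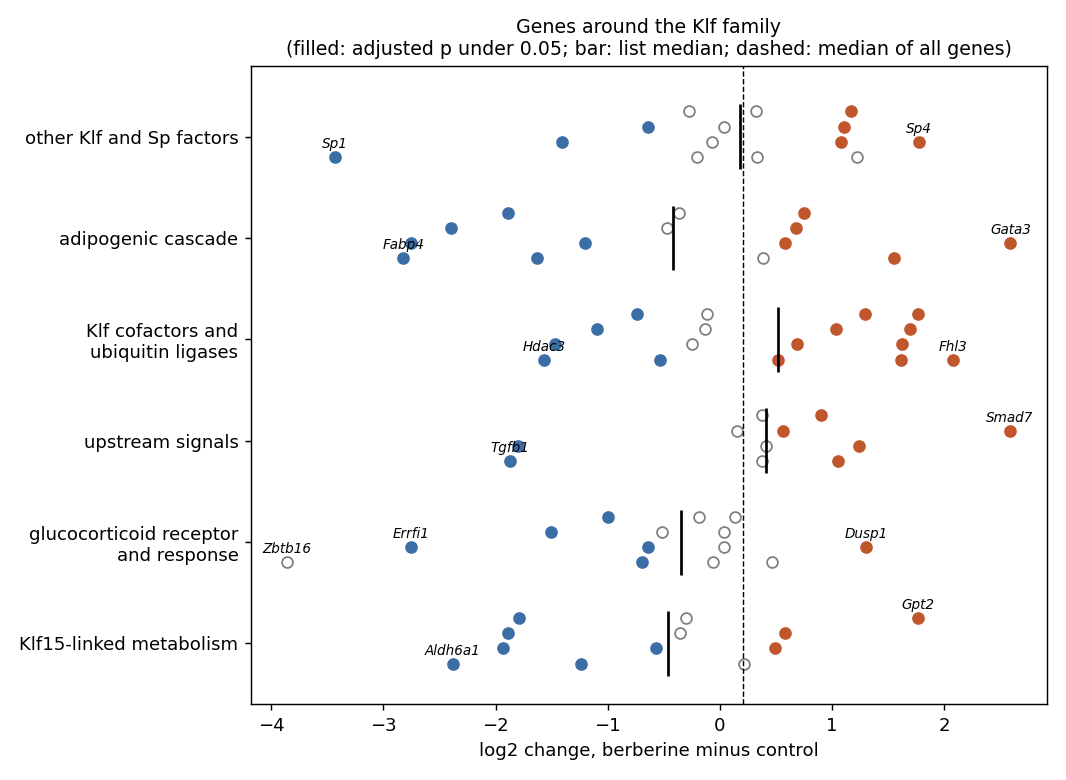
Log2 change of each measured gene in 6 lists around the Klf family, by its brightest probe, with filled points where the adjusted p from limma was under 0.05. The bar is the list's median and the dashed line the median of all genes at 0.20. Sp1 is the lowest called gene, and Zbtb16, named here after its values were seen, lies lower but did not pass, with 4.84 and 10.42 on its berberine arrays.

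Klf9 and Klf15 are both induced by glucocorticoids, and the cells were given dexamethasone, so the receptor and other such genes were listed. Of 14 genes, 1 rose, 5 fell and 8 did not pass, with a median of -0.35; after centring 4 were higher and 2 lower, and without berberine replicate 1 the count was 3. Errfi1, a feedback inhibitor of EGF receptor signalling, fell 6.73-fold, Ddit4, an inhibitor of mTOR, fell 2.85-fold, and Lcn2, the secreted protein lipocalin, fell 2.0-fold, a call lost after centring (adjusted p = 0.115) and without berberine replicate 1 (0.0574). Nr3c1, the glucocorticoid receptor, read 13.05 and 13.48 in control and 12.55 and 12.69 with berberine. Its log2 change of -0.64 passed (adjusted p = 0.0445) but was 0.026 after centring, and the call was also lost under the other scalings, without control replicate 2 and without either berberine array (0.0851 to 0.471).

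Genes described as targets of Klf15 were lower in 6 and higher in 3 of 12 cases, with 3 not past the threshold and a median of -0.46. Bcat2, which starts the breakdown of branched-chain amino acids, fell 3.47-fold (adjusted p = 0.000609). Aldh6a1, an enzyme of valine breakdown, fell 5.20-fold (adjusted p = 0.000926), and its other probe fell 61.8-fold. Gpt2, a mitochondrial alanine aminotransferase, rose 3.40-fold (log2 change 1.77, adjusted p = 0.000843; 2.46 after centring). Slc2a4, the insulin-responsive glucose transporter, read 10.04 and 10.02 in control and 10.62 and 10.59 with berberine, a rise of 0.58 (adjusted p = 0.0156) that was 0.07 in the deposited values (0.866) and was also lost after scaling on the 75th percentile (0.162) and without either berberine array (0.121 without replicate 1 and 0.103 without replicate 2).

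Most adipocyte markers moved with the groups, and calls in the other marker lists were mixed or few. The labels call the cells preadipocytes, and in control all 8 adipocyte markers measured were above the floor, against 5 with berberine. Of these 8 markers 7 fell and 1 did not pass, and their summed normalized intensity was 556984 to 582118 in control and 29785 to 31761 with berberine. Of 6 preadipocyte markers 2 rose, 3 fell and 1 did not pass, with sums of 293772 to 304292 and 258638 to 263469. Sums in control and with berberine were recorded for macrophage (1032 to 1209 and 1077 to 1157, 5 markers), endothelial (968 to 1014 and 1421 to 1526, 5 markers), epithelial (713 to 753 and 428 to 452, 3 markers) and muscle markers (947 to 1307 and 1807 to 1856, 3 markers). Of the 5 macrophage markers 1 rose, 1 fell and 3 did not pass, and of the 5 endothelial markers 3 rose and 2 did not pass. Only 1 of 3 epithelial markers was called, as lower, and only 1 of 3 muscle markers, as higher. The sums of these lists therefore need not stand for all their markers. Adgre1, the defining macrophage marker, was below the floor in both groups, and 4 of 5 macrophage markers were above it. Of all 17734 genes, 14420 were above the floor in control and 14509 with berberine, so a marker above it does not show that a cell type was present. In such bulk samples fewer cells of a type and less RNA per cell cannot be told apart, and the part of the adipocyte fall in the changes of Klf4, Klf5 and Klf15 was not tested.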

How the data were processed

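RNA from 2 control and 2 berberine samples was labelled with Cy5 for 1-colour arrays, per the labels' protocols. The authors deposited linear intensities in whole numbers. How they corrected background or scaled arrays is not stated in the sources used here. Array medians of the deposited intensity ran from 350 to 423 in control and from 237 to 280 with berberine. Groups were taken from the sample titles, which match the source names; the treatment text is 1 for all samples and mentions berberine.

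A value of 0 or less on some array removed 15 probes. Log2 intensities of the other 26408 were quantile-normalized and fitted with limma 3.58.1 (R 4.3.3; lmFit, eBayes), with Benjamini-Hochberg adjustment over all probes. The fit had 2 residual and 2.89 prior degrees of freedom. It was also run on simulated arrays with few changed probes, as many up as down, and equal spread in both groups. The real arrays differ on each of these points, so that run does not test the fit under their conditions. Of 20377 probes with a symbol, 2126 were renamed through an older symbol. Named genes are all members, 10 fixed genes and, per list, up to 3 called genes with the smallest p whose brighter group lay above the floor. The members, lists, floor and normalization were chosen with earlier results of these data known. No set test was run. Alternatives were other scalings, a replicate block, each array left out, log2(value + 16), leaving out dim probes, an intensity trend with robust prior, a 2-fold minimum and averaging of probes. The number of arrays limits the precision.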

Additional observations from a re-analysis of the deposited data

How the results depend on the processing

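Member probes past the threshold numbered 8. The count was 4 in the deposited values and 4 with at least a 2-fold change in addition, 8 with the replicate block, and 3 to 7 when each array was left out. Over all probes it was 11838 as reported, 6687 in the deposited values, 5806 with the 2-fold minimum, 12760 with the replicate block and 4339 to 10772 with an array left out. Genes of the context lists gave 53 calls of 81, and 30 to 54 with an array left out. By the brightest probe, 48.2% of all 17734 genes were called. Over all probes, lower calls made up 39.5% of calls, 64.2% in the deposited values and 23.6% after centring. A lone array was assumed to vary like the other group, and the cause of the losses was not tested.

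The block changed no member call. Same-numbered arrays did not deviate together after quantile normalization (correlation 0.0035 across probes). This value cannot tell whether same-numbered samples were cultured or processed together, which the labels do not say.

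Signs turned in the deposited values for Klf2 (-0.076), Klf7 (-0.056), Klf9 (0.15) and Ctbp1 (0.087), after centring for Klf9 (0.72), Cebpb (0.41), Ctbp1 (0.65) and Nr3c1 (0.026), after scaling on the 75th percentile for Klf9 (0.46), Cebpb (0.15) and Ctbp1 (0.39), and for Klf9 without control replicate 1 (0.14, with a range of -0.27 to 0.14 over the arrays left out). Of these, Nr3c1 alone was called after quantile normalization of all 4 arrays.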
